A study of Rattus norvegicus with 4 samples.

Results

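The genes described here are 8 transcription factors of the sympathoadrenal lineage, Phox2a, Hand1, Hand2, Gata2, Gata3, Insm1, Isl1 and Tcfap2b, chosen by name in the gene counts of a pair of PC12 clones. PC12 is a rat pheochromocytoma line, derived from a tumour of the adrenal medulla, that makes catecholamines and responds to nerve growth factor. The clone wtPC12 is the wild type with low REST, and the clone hrPC12, earlier called PC12-27, has high REST; REST is a repressor of neuronal genes. RNA was sequenced from 2 libraries of each clone, with no treatment named in the labels, so each level of REST is represented by 1 clone and a difference between the clones cannot be told apart from any other property of those clones. The labels do not say whether the libraries of a clone came from separate cultures, so p values measure only the spread between these libraries.

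Of the 8 factors, 7 had a row among the 25810 genes in the count files, and 6 were among the 13726 genes that entered the test. Insm1, a zinc finger repressor of neuroendocrine cells, had no row under that symbol and was not analysed here. Tcfap2b, which encodes AP-2 beta, had too few reads to be tested. Reads on genes ranged from 20975027 to 27246502 per library, and 3 reads, taken here as the limit of detection, correspond to 2.54 to 3.49 normalized counts. A normalized count is a read count scaled to the mean effective library size, and log2 FC is the log2 fold change of hrPC12 over wtPC12. Rest gave 43.0 and 132 normalized counts in the wtPC12 libraries and 964 and 915 in the hrPC12 libraries. Its levels followed the labels, with a log2 FC of 3.42 (SE 0.57, n = 2 libraries per clone) and an adj. p of 0.0115 in the quasi-likelihood test of edgeR. Its log2 FC fell between 2.80, when wtPC12 replicate 1 was left out, and 4.44, when wtPC12 replicate 2 was.

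Chromaffin cells and sympathetic neurons arise from trunk neural crest cells that settle near the dorsal aorta and receive bone morphogenetic protein signals. These signals lead to the expression of Phox2a, Hand2, Gata2 and Gata3 in a network whose members act on one another. Together they switch on the enzymes and transporters of noradrenaline, such as tyrosine hydroxylase and dopamine beta-hydroxylase, and several of them keep those genes active in mature cells. Hand1, a close relative of Hand2, is expressed in the same lineage and in the heart, and Isl1 is a LIM homeodomain factor of sympathetic, sensory and motor neurons.

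The promoters of Phox2a and Hand1, the members with the lowest log2 FC, are shown beside that of Hand2, the paralog of Hand1. Each is the 300 bases from 250 before to 50 from the start of the gene, 5′ to 3′ on the strand of the gene, as RefSeq gives it in the rat assembly GRCr8, which is not the build of the counts. Capitals mark the E-box CANNTG, the GATA site AGATAA, the homeodomain core TAATTA and parts of the REST element, TTCAGCACC and GGACAG, on either strand. The stretches lie at chr1:165590507-165590806 on the plus strand for Phox2a, chr10:42509635-42509934 on the minus strand for Hand1 and chr16:37931439-37931738 on the minus strand for Hand2.
Phox2a: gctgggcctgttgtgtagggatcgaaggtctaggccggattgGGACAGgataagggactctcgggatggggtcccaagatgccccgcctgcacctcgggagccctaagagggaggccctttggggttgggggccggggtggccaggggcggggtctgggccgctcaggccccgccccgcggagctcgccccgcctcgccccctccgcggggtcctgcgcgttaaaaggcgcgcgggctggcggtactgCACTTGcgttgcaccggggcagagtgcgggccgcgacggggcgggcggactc
Hand1: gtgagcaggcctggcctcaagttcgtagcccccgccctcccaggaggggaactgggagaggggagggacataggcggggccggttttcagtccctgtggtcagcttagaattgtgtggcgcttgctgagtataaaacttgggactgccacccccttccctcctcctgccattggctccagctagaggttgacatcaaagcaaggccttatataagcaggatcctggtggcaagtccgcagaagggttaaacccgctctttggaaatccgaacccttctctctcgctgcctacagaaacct
Hand2: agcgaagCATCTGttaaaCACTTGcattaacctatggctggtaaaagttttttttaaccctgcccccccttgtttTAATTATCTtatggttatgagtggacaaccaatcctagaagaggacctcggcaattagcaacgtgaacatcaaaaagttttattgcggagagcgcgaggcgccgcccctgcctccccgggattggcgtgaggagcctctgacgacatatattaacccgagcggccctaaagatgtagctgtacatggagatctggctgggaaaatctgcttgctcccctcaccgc
The promoter of Phox2a had a GC content of 73%, against a median of 51.7% over the 33469 promoters of this length, and 4.87% of them were as rich in GC. It held GGACAG at position −208 and an E-box at position −2, where position 0 is the first base of the gene. The promoter of Hand1, with 57% GC, held none of the letters marked in capitals, and had TATAAA at position −121 and CCAAT at position −81. The promoter of Hand2, with 49.3% GC, had E-boxes at positions −243 and −232, and a TAATTA at position −175 that overlapped an AGATAA at position −172. The longer part of the REST element, TTCAGCACC, was in none of the 6 promoters of members in the table and in 0.356% of all promoters, and GGACAG was in 21.7%. Matches to the E-box were in 72.1% of all promoters, to TAATTA in 5.36%, to AGATAA in 11.6%, to TATAAA in 14.2% and to CCAAT in 37.5%. These matches describe the letters of a short window and say nothing of the binding of a factor.

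The homeodomain factor Phox2a, which switches on the dopamine beta-hydroxylase gene, had the lowest log2 FC of the members. It gave 18953 and 17616 normalized counts in the wtPC12 libraries and 393 and 436 in the hrPC12 libraries, so that the hrPC12 libraries held 2.15% and 2.39% of the wtPC12 mean. The means were 18284 ± 946 (SD, n = 2) and 414 ± 30.6, and the clones were far apart with little spread within each. Phox2a fell 44.1-fold, with a log2 FC of −5.46 (SE 0.21, 95% interval −5.99 to −4.94) and an adj. p of 0.000266. The threshold of 0.01 on the adj. p, used for a call, was met by no gene without wtPC12 replicate 2. Phox2a had a log2 FC of −5.515 in that fit. As fewer expressing cells and less RNA per cell give the same counts in bulk RNA, these cannot be told apart, here or for the other genes.

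Isl1, the other homeodomain factor among the members, had the fewest reads of the tested members. It gave 223 and 268 normalized counts in wtPC12 and 79.6 and 45.5 in hrPC12, with means of 246 ± 31.5 and 62.6 ± 24.1 (SD, n = 2). Both hrPC12 libraries lay below both wtPC12 libraries, and hrPC12 replicate 1 was 1.75-fold above replicate 2. The log2 FC was −1.97 (SE 0.39, 95% interval −2.97 to −0.97) with an adj. p of 0.0196, lower at an adjusted p under 0.05 but past neither the stricter threshold of 0.01 nor that of 2 on the log2 scale. Without wtPC12 replicate 2 the log2 FC was −1.83, and without hrPC12 replicate 1 it was −2.43. Its paralog Isl2, a LIM homeodomain factor of motor neurons, gave 48.9 and 68.0 normalized counts in wtPC12 and 296 and 311 in hrPC12. Isl2 rose with a log2 FC of 2.37 (SE 0.32) and an adj. p of 0.00653. When wtPC12 replicate 1 was left out, the adj. p of Isl2 was 0.0140, and when wtPC12 replicate 2 was left out it was 0.0215, both short of a call.

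Hand1 and Hand2, basic helix-loop-helix factors that pair with the ubiquitous E proteins, differed in their log2 FC. Hand1 gave 5188 and 4449 normalized counts in wtPC12 and 266 and 326 in hrPC12, which is 5.52% and 6.76% of the wtPC12 mean. Its means were 4819 ± 523 and 296 ± 42.4 (SD, n = 2), and the groups stood well apart. Hand1 fell 16.3-fold, with a log2 FC of −4.03 (SE 0.22, 95% interval −4.59 to −3.46) and an adj. p of 0.000549. Without wtPC12 replicate 2, where no gene was called, its log2 FC was −4.13.

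Hand2, which maintains noradrenergic genes in sympathetic neurons, gave 2099.7 and 1724 normalized counts in wtPC12 and 1349 and 778 in hrPC12. The hrPC12 libraries held 70.5% and 40.7% of the wtPC12 mean, so they lay below the wtPC12 libraries but differed from each other more than those did. The log2 FC was −0.85 (SE 0.32, 95% interval −1.655 to −0.04), and its p of 0.0434 in the quasi-likelihood test became an adj. p of 0.0979 over all genes. Without hrPC12 replicate 1 the log2 FC was −1.30, and without hrPC12 replicate 2 it was −0.55.

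**Figure D1:**
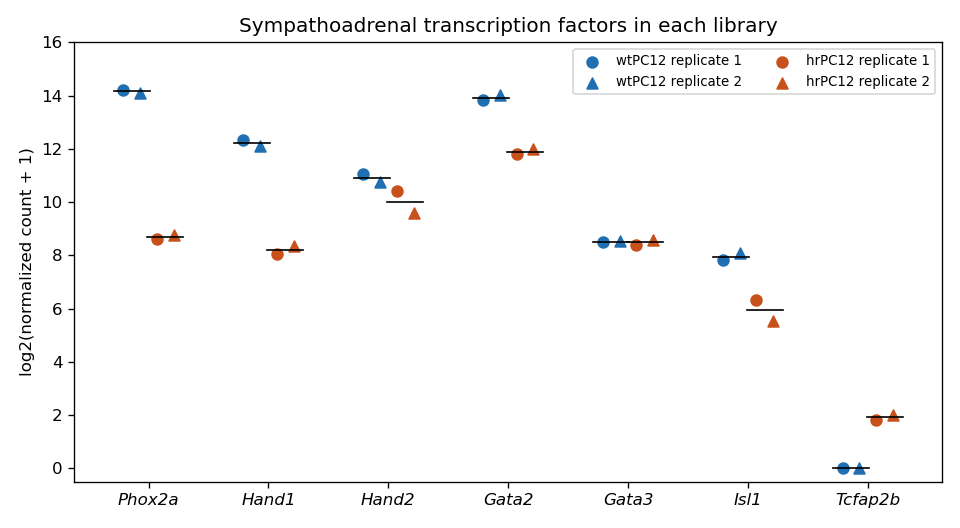
Levels of the 7 members with a row in the count files, as log2(normalized count + 1), in the 2 wtPC12 libraries (blue) and the 2 hrPC12 libraries (orange); circles are replicate 1, triangles replicate 2, and black lines the means of each clone on this scale. Phox2a, Hand1 and Gata2 lie far below wtPC12 in both hrPC12 libraries, Gata3 overlaps, and Tcfap2b is at the limit of detection.

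The other genes of the Hand and Twist family did not share one direction. Twist1, a mesenchymal factor, gave 352 and 340 normalized counts in wtPC12 and 503 and 530 in hrPC12, with a log2 FC of 0.58 (SE 0.23) and an adj. p of 0.114. Scx, a factor of tendon progenitors, gave 71.0 and 79.3 in wtPC12 and 29.6 and 34.4 in hrPC12, with a log2 FC of −1.23 (SE 0.36) and an adj. p of 0.0532. Neither passed a threshold. Tcf15 had 4 and 5 reads in wtPC12 and 0 and 0 in hrPC12, while Twist2, Msc and Tcf21 had at most 1 read in any library.

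Gata2 and Gata3 are zinc finger factors, and Gata3 is required for noradrenaline synthesis in sympathetic neurons and chromaffin cells. Gata2 gave 14672 and 16464 normalized counts in wtPC12 and 3581 and 4073 in hrPC12, or 23.0% and 26.2% of the wtPC12 mean. Its means were 15568 ± 1267 and 3827 ± 348 (SD, n = 2), with the clones apart and similar libraries within each. Gata2 fell 4.07-fold, with a log2 FC of −2.02 (SE 0.185, 95% interval −2.50 to −1.55) and an adj. p of 0.00195. This value lay just past the threshold of 2. Gata2 fell short of it without wtPC12 replicate 2 (log2 FC −1.94) or without hrPC12 replicate 1 (log2 FC −1.935), and so was not called. With library totals in place of TMM factors it was −1.96, also short of the fold threshold.

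Gata3 was the only member whose clones overlapped. It gave 363 and 367 normalized counts in wtPC12 and 334 and 381 in hrPC12, with means of 365 ± 2.67 and 358 ± 33.9 (SD, n = 2). The log2 FC was −0.03 (SE 0.25) with an adj. p of 0.931, and the 95% interval from −0.66 to 0.60 holds changes of moderate size in either direction. The sign of this small value turned with library totals in place of TMM factors, at 0.04, and without hrPC12 replicate 1, at 0.06.

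Of the other GATA factors, Gata4, a factor of heart and endoderm, gave 87.2 and 76.2 normalized counts in wtPC12 and 98.2 and 107 in hrPC12. Its log2 FC of 0.33 (SE 0.32) had an adj. p of 0.447. Gata1 had 1 read, in hrPC12 replicate 1, Gata5 had none, and Gata6 was not found by symbol. The erythroid Gata1 and the endodermal Gata5 were thus not detectable at this depth in either clone.

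Tcfap2b, needed for the development of noradrenergic neurons, had 0 and 0 reads in wtPC12 and 3 and 3 in hrPC12. Both clones were at or under the limit of 3 reads, so no fold is given. Its paralog Tcfap2a had 1 read, in wtPC12 replicate 2, and Tcfap2c and Tcfap2d had none. The AP-2 gene with reads in every library was Tcfap2e, with 268 and 229 normalized counts in wtPC12 and 367 and 324 in hrPC12. Its log2 FC of 0.48 (SE 0.26) had an adj. p of 0.213. Insm2, the paralog of the member without a row, had 0 and 3 reads in wtPC12 and 1 and 1 in hrPC12, which is also at or under the limit.

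**Figure D2:**
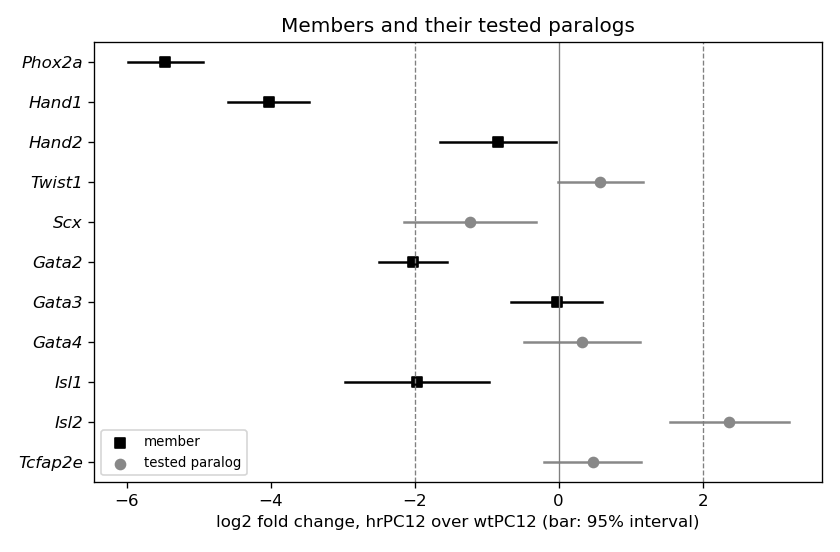
Log2 FC of hrPC12 over wtPC12 with 95% intervals for the tested members (black squares) and their tested paralogs (grey circles), with dashed lines at −2 and 2. Hand1 at −4.03 and Hand2 at −0.85, Gata2 at −2.02 and Gata3 at −0.03, and Isl1 at −1.97 and Isl2 at 2.37 lie apart within a family.

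At an adj. p under 0.01 and a log2 FC past 2, 3 of the 6 tested members were lower in hrPC12 (Phox2a, Hand1 and Gata2), against 5.46% of all tested genes. No member was higher, where 4.84% of all tested genes were, and DESeq2 called the same 3 members and Isl1 lower and none higher. At an adj. p under 0.05 alone, 4 were lower with Isl1 added, against 16.3% of all genes, and 0 were higher, against 16.1%. At an unadjusted p under 0.05 there were 5 lower and 0 higher, against 3111 lower and 3246 higher of all 13726 tested genes. The clones did not overlap in 5 of the 6 members, against 73.5% of all tested genes, so that count is to be read against a high background. The median log2 FC was −1.996 over the 6 members and 0.06 over all tested genes. Without wtPC12 replicate 2, edgeR called 0 of the 13726 genes, since its smallest adj. p was 0.0130. In the same libraries 6942 genes and 4 of the 6 members had an unadjusted p under 0.05, and DESeq2 called 3 members lower.

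Levels of different genes cannot be compared without transcript lengths, but the ratio of a pair of genes within a library can be compared between clones and does not depend on the scaling of the library. Reads on Hand1 were 2.47 and 2.58 times those on Hand2 in wtPC12 and 0.197 and 0.419 times in hrPC12. The log2 ratio was lower by 3.13 on average in hrPC12, and the order of read counts of the pair was opposite in the clones. Reads on Gata2 were 40.4 and 44.9 times those on Gata3 in wtPC12 and 10.7 and 10.7 times in hrPC12, a mean log2 difference of −1.99.

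The ratios of Phox2a to Gata2, Phox2a to Hand1 and Isl1 to Isl2 were added after their values were seen. Each has the gene with the lower log2 FC first, so the direction of these ratios was set by the choice of pair. Reads on Phox2a were 1.29 and 1.07 times those on Gata2 in wtPC12 and 0.110 and 0.107 times in hrPC12, a log2 difference of −3.44. Reads on Phox2a were 3.65 and 3.96 times those on Hand1 in wtPC12 and 1.48 and 1.34 times in hrPC12, a log2 difference of −1.44. Phox2a was therefore lower in hrPC12 relative to each of the other called members. Reads on Isl1 were 4.57 and 3.94 times those on Isl2 in wtPC12 and 0.269 and 0.147 times in hrPC12, a log2 difference of −4.40. In each of the 5 pairs the clones did not overlap, as in 73.5% of single tested genes. The two-sided exact permutation p was 0.333 for each pair, before or after adjustment over the pairs. It is the smallest that 2 against 2 libraries can give.

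**Figure D3:**
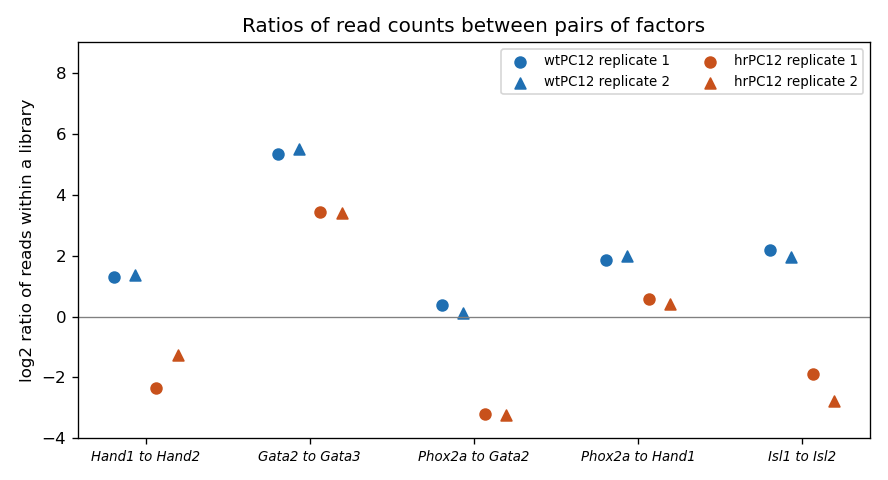
Log2 ratio of reads between pairs of factors within each library (offset of 0.5 reads), with wtPC12 in blue and hrPC12 in orange, circles for replicate 1 and triangles for replicate 2. All 5 ratios are lower in both hrPC12 libraries. For Phox2a to Gata2, Phox2a to Hand1 and Isl1 to Isl2, added after the values were seen, this direction was set by the choice of pair. The ratio of Hand1 to Hand2 goes from above 0 in wtPC12 to below 0 in hrPC12.

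The spread of Hand2 and Isl1 within hrPC12 was shared with other genes. Among 9332 genes with at least 100 normalized counts in every library, the log2 ratio between the hrPC12 libraries, replicate 1 over 2, had 2 peaks. A total of 1725 genes (18.5%) lay above 0.5, with a median of 0.82 or 1.77-fold, and the rest had a median of −0.07. Only 388 genes (4.16%) lay within 0.2 of the value of 0.5 between the peaks. The wtPC12 libraries also differed from each other, with 30.1% of these genes past a log2 ratio of 0.5 in either direction.

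Hand2 had a log2 ratio of 0.79 and Isl1, whose counts in hrPC12 were too low for that set of genes, had one of 0.81, so 2 members were in the upper peak. Phox2a at −0.15, Hand1 at −0.29, Gata2 at −0.19 and Gata3 at −0.19 were in the lower peak. The ratios of neighbouring genes were read in the gene order of RefSeq. Of the 14 nearest placed genes, 7 on each side, Isl1 had 14 above 0.5, with a median of 0.82 and a range from 0.71 to 1.36. Hand2 had 0 of 7 above 0.5 before it and 5 of 7 after it. Gata3 had 0 of 7 before it and 7 of 7 after it, and its own ratio was below those of all 14. Phox2a had 1 of 14, Hand1 had 0 of 14 and Gata2 had 3 of 14 above 0.5.

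The values of Hand2 and Isl1 moved with this difference between the hrPC12 libraries. When hrPC12 replicate 1 was divided by the median ratio of the upper peak for both genes, an alternative chosen after the data were seen, Hand2 had 762 normalized counts in that library and a log2 FC of −1.31 (SE 0.20, adj. p 0.00962). Isl1 had 44.9 there and a log2 FC of −2.44 (SE 0.31, adj. p 0.00538), so that 4 members were called lower. That scaling makes the libraries alike by construction, and the cause of the peaks was not tested.

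**Figure D4:**
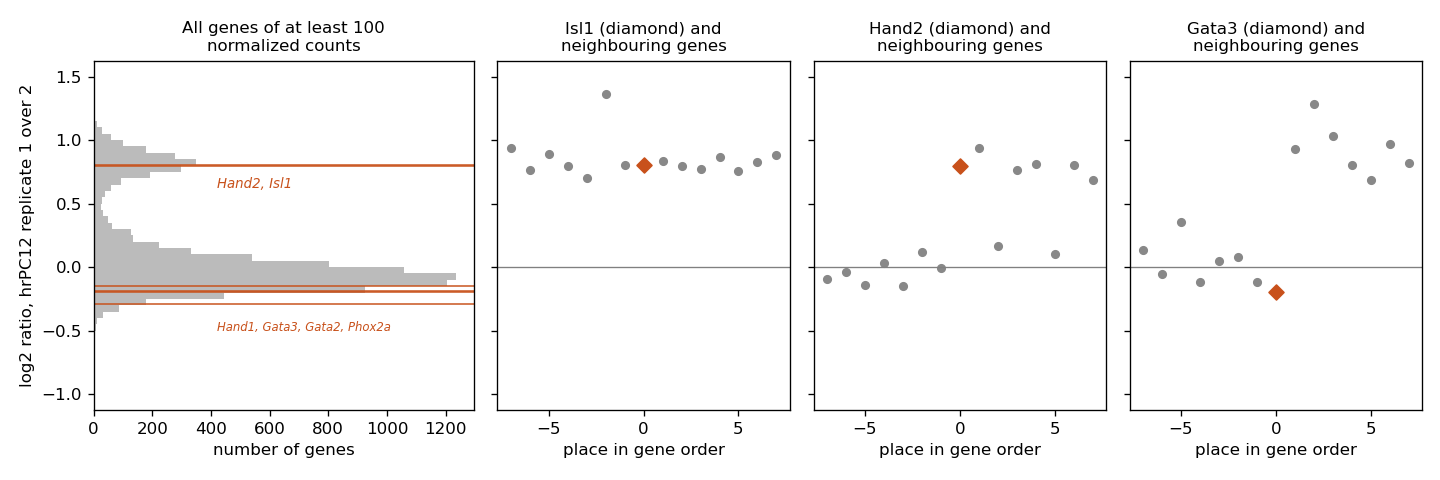
Left, number of genes with at least 100 normalized counts in every library by the log2 ratio of hrPC12 replicate 1 over replicate 2, with orange lines at the ratios of the 6 tested members. Right, the same ratio for Isl1, Hand2 and Gata3 (orange diamonds) and their 7 neighbours on either side in gene order (grey), in which all 14 neighbours of Isl1 and those after Gata3 lie above 0.5.

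The genes that act with the members were described by lists written from general knowledge, but with earlier results of these data known. Without wtPC12 replicate 2, edgeR made none of the calls given for these lists. Of 20 other transcription factors of the lineage, 19 were found and 11 were tested, of which 3 were lower, Tbx3 and Tlx2 among them, and 1 was higher (Isl2) past both thresholds. Over all tested genes the shares past both thresholds were 5.46% lower and 4.84% higher. The median log2 FC of the 11 was −0.28. Tlx2, a homeobox gene of enteric and sympathetic neurons, gave 7750 and 7538 normalized counts in wtPC12 and 251 and 342 in hrPC12, with the clones far apart. Tlx2 fell with a log2 FC of −4.69 (SE 0.24) and an adj. p of 0.000478. Tbx3, a T-box factor, had 2738 reads in the wtPC12 libraries together and 3 in the hrPC12 libraries, a ratio of 1080 with a counting interval of 370 to 5250. Mycn, the oncogene of neuroblastoma, had 13 and 21 reads in wtPC12 and none in hrPC12, and so was not tested.

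At an adj. p under 0.05, 4 of these 11 were lower and 2 higher, against 16.3% and 16.1% of all tested genes. Satb1 at −2.33 was added to the lower genes and Meis2 at 1.998 to the higher. Sox11, which supports sympathetic proliferation, had no read. The cofactor Meis1 had a log2 FC of 0.68 with an adj. p of 0.0548, and Sox4 had 1.20 with an adj. p of 0.0858, neither past a threshold.

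Of 24 partners and cofactors of the members, 22 were found and 15 were tested, with 2 lower (Kctd15 and Id1) and 0 higher past both thresholds. Of all tested genes, 5.46% were lower and 4.84% higher by that rule. At an adj. p under 0.05 there were 3 lower and 3 higher, against 16.3% and 16.1% of all tested genes. At an unadjusted p under 0.05 there were 4 lower and 6 higher, against 3111 lower and 3246 higher of all 13726 tested genes. DESeq2 called 0 higher, and the median log2 FC was 0.32. Kctd15, an inhibitor of AP-2 alpha, gave 646 and 667.5 normalized counts in wtPC12 and 8.47 and 10.1 in hrPC12, and fell with a log2 FC of −6.13 (SE 0.33, adj. p 0.000523). AP-2 genes themselves had hardly a read apart from Tcfap2e. Id1, which binds E proteins and keeps them from partners such as Hand1 and Hand2, gave 14818 and 8720 in wtPC12 and 2495 and 2975 in hrPC12. Id1 fell with a log2 FC of −2.11 (SE 0.31, adj. p 0.00800), but leaving out wtPC12 replicate 1 gave −1.70 and leaving out hrPC12 replicate 1 gave −1.98, short of the fold threshold.

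The E proteins, the partners of Hand1 and Hand2, passed no threshold. Tcf3 had a log2 FC of 0.49 (adj. p 0.0744), Tcf4 one of 0.32 (adj. p 0.651) and Tcf12 one of 0.23 (adj. p 0.617). Among other partners, at an adj. p under 0.05, the LIM-only gene Lmo1 was lower with a log2 FC of −1.05. Hdac1, Cited2 and Kdm1 were higher, with log2 FC of 1.74, 1.08 and 0.61, and Hdac1 gave 4295 and 2386 normalized counts in the hrPC12 libraries, a gap like that of Hand2. Rcor1, the scaffold through which REST recruits Kdm1, had a log2 FC of −0.25 with an adj. p of 0.318. Genes of this list named outside the call rule, the E proteins and Rcor1 among them, were chosen after their values were seen, as were Meis1 and Sox4 above.

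Of 19 genes of the noradrenergic program that the members act on or are expressed with, 15 were found and 13 tested. Past both thresholds, 9 were lower and 0 higher, against 5.46% and 4.84% of all tested genes. At an adj. p under 0.05 there were 11 lower and 0 higher, against 16.3% and 16.1%. The counts were the same at an unadjusted p under 0.05, against 3111 lower and 3246 higher of all 13726 tested genes. DESeq2 also called 0 higher. The median log2 FC was −3.91. Dbh, a target of Phox2a and Hand2 that makes noradrenaline from dopamine, gave 243 and 216 normalized counts in wtPC12 and 5.08 and 6.07 in hrPC12. Dbh fell with a log2 FC of −5.34 (SE 0.39, adj. p 0.00109). Th, the rate-limiting enzyme of catecholamine synthesis, gave 202932 and 132838 in wtPC12 and 18729 and 21001 in hrPC12. Th fell with a log2 FC of −3.08 (SE 0.325, adj. p 0.00297).

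Slc18a1, the vesicular transporter of chromaffin granules, gave 18628 and 16356 normalized counts in wtPC12 and 11.9 and 25.3 in hrPC12, a log2 FC of −9.90 (adj. p 0.000328). Ngfr, the low-affinity receptor of nerve growth factor, had a log2 FC of −7.175, and the nicotinic receptor gene Chrna3 had −6.74. The noradrenaline transporter Slc6a2 had a ratio of 359 between summed reads of wtPC12 and hrPC12, with a counting interval of 154 to 1110. Maoa, which breaks down monoamines, was lower by less, with a log2 FC of −1.13. Ddc, which converts L-DOPA to dopamine, gave 24196 and 20841 in wtPC12 and 26281 and 27995 in hrPC12. Its log2 FC of 0.27 (SE 0.19, 95% interval −0.23 to 0.77) had an adj. p of 0.322. The vesicular transporter Slc18a2 had a log2 FC of −0.10 with an adj. p of 0.870. Maoa, Ddc and Slc18a2 were chosen after their values were seen.

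**Figure D5:**
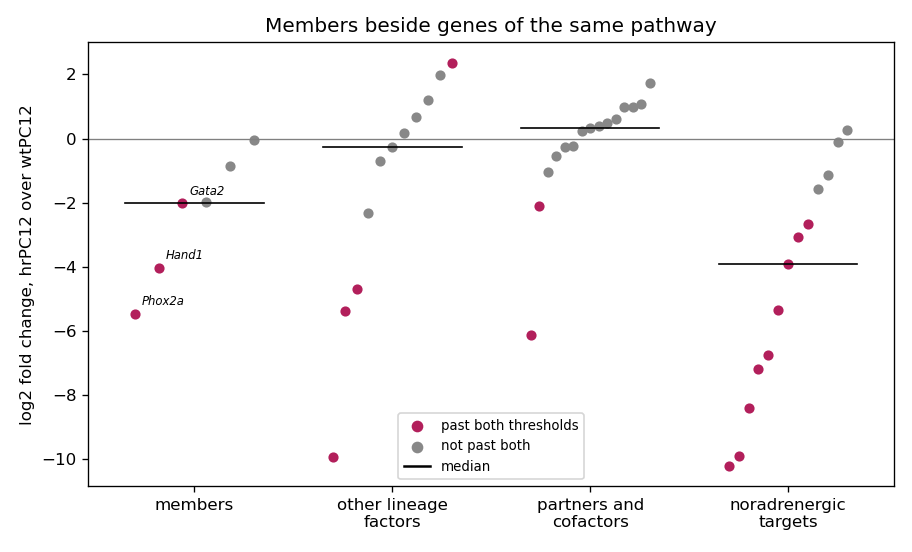
Log2 FC of hrPC12 over wtPC12 of every tested member and of the tested genes of the 3 lists of other lineage factors, partners and noradrenergic targets, each ordered from lowest to highest; genes past both thresholds are coloured, with the members among them named, and black lines are medians. The medians are −1.996 for the members, −0.28, 0.32 and −3.91.

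Markers of cell types were read in both clones. For comparison, 5.46% of all tested genes were lower and 4.84% higher past both thresholds. At an adj. p under 0.05 the shares were 16.3% lower and 16.1% higher. Of 8 chromaffin markers, 6 were found, and all but Scg2 are also in the noradrenergic list, so they are not a separate check. Their summed normalized counts were 1030000 and 872000 in wtPC12 and 45400 and 50000 in hrPC12. Chgb, with 687936 and 626776, made up most of the sum in wtPC12. Ddc, with 26281 and 27995, made up most of it in hrPC12. Chromaffin markers were thus expressed in wtPC12, and in hrPC12 5 of the 6, all but Ddc, were lower past both thresholds. The 7 members with a row summed to 41500, 40900, 6000 and 6040 in wtPC12 replicates 1 and 2 and hrPC12 replicates 1 and 2. Phox2a, with 18953 and 17616, and Gata2, with 14672 and 16464, made up most of that sum in wtPC12. Gata2, with 3581 and 4073, made up most of it in hrPC12. In the same order, 9 fibroblast markers summed to 18100, 16300, 94900 and 99700, and 5 of the 8 tested were higher past both thresholds while 2, Thy1 and Dcn, were lower at an adj. p under 0.05. Thy1, with 17929 and 16186 normalized counts, made up most of the fibroblast sum in wtPC12, and Col3a1, with 83801 and 88143, most of it in hrPC12. For the 9 skeletal muscle regulators the sums were 383, 683, 4540 and 4440, with 3 of 6 tested higher, 1 lower at an adj. p under 0.05 and Myf5 at 0 in all libraries. Myod1, with 3258 and 3576, made up most of that sum in hrPC12. Endothelial markers summed to 102, 121, 667 and 648, with 1 of 4 tested higher past both thresholds, 2 at an adj. p under 0.05 and Emcn at 0. Vwf, with 564 and 560, made up most of that sum in hrPC12. Leukocyte markers summed to 55.8, 52.5, 455 and 524, with 1 of 4 tested higher past both thresholds, 3 at an adj. p under 0.05 and Ptprc with 1 read over the 4 libraries. Cd14, with 346 and 412, made up most of that sum in hrPC12. Markers of the adrenal cortex summed to 116, 94.8, 293 and 263, with Cyp17a1 and Hsd3b1 at 0. Of the 3 tested, 2 were higher at an adj. p under 0.05, Cyp21a1 with a log2 FC of 4.33 (adj. p 0.0166) and Cyp11a1 with 3.13 (adj. p 0.0147), and none passed both thresholds. Those of Schwann cells and crest precursors summed to 218, 263, 304 and 312, with Sox10 and Foxd3 at 0, and neither of the 2 tested passed a threshold. Marker genes named at an adj. p under 0.05 alone were chosen after their values were seen. The part of these markers in the members' levels was not tested.

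The genes most like Phox2a and Gata3, the members with the largest and smallest absolute log2 FC, were found by Euclidean distance over the 4 libraries on the scale log2(normalized count + 1). Nearest to Phox2a was Dkk3, at a distance of 0.919, with 21941 and 22955 normalized counts in wtPC12 and 268 and 289 in hrPC12. It was followed by the adenosine receptor gene Adora2a at 1.49 and the bHLH-PAS factor gene Arnt2 at 1.60. Adora2a gave 9663 and 9498.5 in wtPC12 and 548 and 613 in hrPC12, and Arnt2 gave 8766 and 10916 in wtPC12 and 653 and 640 in hrPC12. The genes nearest to Gata3, Tmem70, Slc22a5 and MGC116202, lay at 0.149, 0.174 and 0.193.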

How the data were processed

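RNA of the 4 libraries was prepared with the TruSeq v2 kit, which does not mark strand, and sequenced on an Illumina instrument. The authors aligned reads to the rat build rn4 and deposited whole-number counts of reads per gene, without normalization. The submitters' processing notes name TopHat2 2.0.4, HTSeq 0.5.3 and DESeq 1.9.12. Since strand was not marked, reads of overlapping antisense genes cannot be separated, and reads without a unique position (5.85% to 9.13%) were not counted on genes. A deposited table of the authors' own comparison, with means, fold changes and p values, was not used. The 5 rows that name no gene were left out, and reads on genes made up 37.9% to 41.3%.

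The members and gene lists were chosen with earlier results of these data known, and the lists stand by counts and medians with no set test. Counts were scaled with TMM factors in edgeR 4.0.16 (R 4.3.3, limma 3.58.1). Genes entered the test if their normalized counts averaged 5 or more and each clone had a read, and were tested with glmQLFit (legacy on) and glmQLFTest, and p values were adjusted by Benjamini and Hochberg over 13726 genes. The common dispersion was 0.0745. A call needs both an adjusted p below 0.01 and a change of more than 2 on the log2 scale, and a looser rule needs an adjusted p below 0.05. Genes named are the members, Rest, their paralogs, called genes of the lists, up to the 4 lowest and 4 highest by log2 FC, and the 3 nearest genes to the members with the largest and smallest change. A few genes of the lists are counted but not reported by name.

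Alternatives were RLE factors, library totals, every gene with at least 1 read, filterByExpr, DESeq2 1.42.0, the legacy option off, a prior count of 2, glmTreat, an offset of 1 in ratios and each library left out. The scaling of hrPC12 replicate 1 was a further alternative, added after the data were seen. Ratios of reads used an offset of 0.5 reads. Intervals of summed reads are 95% and cover counting error only. Promoter sequences came from RefSeq (GRCr8), where 6 of the 8 members matched by symbol. Gene order came from the same assembly for 8855 genes of at least 20 normalized counts.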

Additional observations from a re-analysis of the deposited data

How the results depend on the processing

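Phox2a ranged from −5.50 to −5.395, Hand1 from −4.06 to −3.95 and Hand2 from −1.31 to −0.79 in log2 FC over the alternatives that keep every library. Isl1 passed both thresholds with RLE factors (−2.015), with DESeq2 (−2.01) and with the scaling of hrPC12 replicate 1 added after the data were seen (−2.44). Gata2 lost its call with library totals alone (−1.96) and with glmTreat (−2.02), which tests against the fold threshold itself, and Gata3 changed sign with library totals (0.038). Rest passed both with RLE factors (3.38), library totals (3.46), every gene with at least 1 read (3.42), DESeq2 (3.39) and the legacy option off (3.41). Other lineage factors called higher numbered 2 with library totals, and those called lower 5 with every gene of at least 1 read. That filter gave 1127 genes higher in all and 1 partner higher, as did filterByExpr for the partners (1). With glmTreat 353 genes were lower and 321 higher. The cause of these shifts was not tested.

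The median degrees of freedom of the edgeR test were 5.13 with all libraries. They were 4.43 without wtPC12 replicate 1, 2.76 without wtPC12 replicate 2, 13700 without hrPC12 replicate 1 and 10.7 without hrPC12 replicate 2. The p values of fits with a library left out, here and above, are therefore not comparable with one another or with the main test. With 1 library left out, its clone is a single library assumed to vary like the other clone. Ranges of log2 FC were then −5.59 to −5.39 for Phox2a, −4.22 to −3.89 for Hand1, −1.30 to −0.55 for Hand2, −2.17 to −1.935 for Gata2, −0.18 to 0.064 for Gata3, −2.43 to −1.67 for Isl1 and 2.80 to 4.44 for Rest, which was called in each of these fits except that without wtPC12 replicate 2. Members called lower numbered 0 to 3, and all genes 0 to 920 lower and 0 to 957 higher, with 0 only without wtPC12 replicate 2, where DESeq2 called 732 lower and 974 higher. No paired analysis was possible because the labels give the clones no shared replicate numbers, and those used here follow the order of the samples and only name them. The ratio of Tcfap2a to Tcfap2b was planned and not run, since the reads were at or under the limit of 3.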
